A study of Mus musculus with 8 samples.

Results

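In fasted mouse liver, 254 open chromatin regions had a peak within the first 18132 of every library that lacked Ppara and of no library that carried it. They were chosen from peak calls of ATAC-seq, an assay that marks accessible DNA by where a transposase can insert adapters. In each of the 8 libraries the 18132 peaks with the highest deposited −log10 p were kept, since the shortest list holds 18132 peaks. This kept nearly the whole list of some Ppara-null libraries, so membership there is close to being called at all. A consensus region was taken when a kept peak overlapped it in all 4 Ppara-null libraries and in none of the 4 Ppara-intact ones. The 254 regions are 0.846% of the 30017 consensus regions with a kept peak in any library, out of 49587 consensus regions in all. Because the calls themselves chose the regions, their separation by Ppara status is a description and was not tested. The opposite pattern, a kept peak in each Ppara-intact list and none without Ppara, held for 402 regions (1.34%).

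All libraries came from flash-frozen whole liver of 9-week-old male C57BL/6 mice after a 24 h fast. The 4 genotypes had 2 libraries each: wild type (WT), liver knockout of Cpt2 (Cpt2 L-/-), knockout of Ppara (Ppara -/-), and the double knockout (Cpt2 L-/- ; Ppara -/-), in which the loss of Ppara is whole-body. Wild type and Cpt2 knockout are called Ppara-intact here, and Ppara knockout and double knockout Ppara-null. The labels name neither the Cre driver behind the Cpt2 deletion nor the deleted exons, and they do not say whether the 2 libraries of a genotype came from separate mice. Whole tissue was used, so fewer cells with an open region and less opening per cell cannot be told apart.

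Ppara encodes a nuclear receptor that is activated by fatty acids and binds DNA with a retinoid X receptor as its partner. In fasting it drives hepatic genes of fatty acid oxidation and ketone body synthesis, and an active receptor recruits coactivators that open chromatin. Cpt2 encodes the carnitine palmitoyltransferase of the inner mitochondrial membrane, without which long-chain fatty acids cannot enter mitochondrial oxidation. Other nuclear receptors share the retinoid X receptor partner of Ppara.

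Annotated transcription start sites bear on 22 of the 254 regions. These 22 overlapped a RefSeq promoter window (GRCm38.p6, the assembly of mm10, 250 bases before to 50 after a start), and 21 covered the start site itself. No share over all regions is given beside these counts. The 5 windows printed here show the highest ranked region (Gm41331, a long noncoding RNA), the highest ranked one at an annotated start of a protein-coding gene (Ubxn10), the start of a xenobiotic receptor (Nr1i2), and 2 starts that hold AP-1, CRE or ETS letters (Tspan15 and Zfp457). They lie at chr15:60141661-60141960 (plus strand), chr4:138737118-138737417, chr16:38294775-38295074, chr10:62231169-62231468 and chr13:67306363-67306662 (minus strand). The first window belongs to 1 of 2 annotated starts of Gm41331. Capitals mark the CCAAT box (read here as ATTGG on the opposite strand) at Ubxn10, Nr1i2 and Tspan15, AP-1 letters at Tspan15, and at Zfp457 STAT and ETS letters that overlap, followed by CRE letters.
Gm41331: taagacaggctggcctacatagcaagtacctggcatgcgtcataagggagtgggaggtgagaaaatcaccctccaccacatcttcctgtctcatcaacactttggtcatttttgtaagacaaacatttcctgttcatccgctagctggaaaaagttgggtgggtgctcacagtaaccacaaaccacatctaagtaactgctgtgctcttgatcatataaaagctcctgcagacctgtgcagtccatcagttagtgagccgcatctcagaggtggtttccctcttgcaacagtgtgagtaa
Ubxn10: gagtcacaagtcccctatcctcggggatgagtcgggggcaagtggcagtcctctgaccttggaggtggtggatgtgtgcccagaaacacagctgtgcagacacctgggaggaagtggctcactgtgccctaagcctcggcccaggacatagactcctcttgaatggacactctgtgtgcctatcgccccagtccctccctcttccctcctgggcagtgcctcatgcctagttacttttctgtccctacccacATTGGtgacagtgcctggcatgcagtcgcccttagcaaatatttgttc
Nr1i2: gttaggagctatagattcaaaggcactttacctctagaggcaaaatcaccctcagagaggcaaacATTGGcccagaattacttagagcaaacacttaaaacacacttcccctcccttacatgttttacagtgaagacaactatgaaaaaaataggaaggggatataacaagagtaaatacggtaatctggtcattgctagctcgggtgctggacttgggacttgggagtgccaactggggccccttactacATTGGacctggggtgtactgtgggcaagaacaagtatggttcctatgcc
Tspan15: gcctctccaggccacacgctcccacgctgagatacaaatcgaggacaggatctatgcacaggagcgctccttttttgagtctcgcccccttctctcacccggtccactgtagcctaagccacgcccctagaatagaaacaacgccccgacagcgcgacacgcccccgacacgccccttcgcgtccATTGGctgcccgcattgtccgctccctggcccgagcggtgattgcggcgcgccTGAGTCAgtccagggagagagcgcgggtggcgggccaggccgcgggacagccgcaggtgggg
Zfp457: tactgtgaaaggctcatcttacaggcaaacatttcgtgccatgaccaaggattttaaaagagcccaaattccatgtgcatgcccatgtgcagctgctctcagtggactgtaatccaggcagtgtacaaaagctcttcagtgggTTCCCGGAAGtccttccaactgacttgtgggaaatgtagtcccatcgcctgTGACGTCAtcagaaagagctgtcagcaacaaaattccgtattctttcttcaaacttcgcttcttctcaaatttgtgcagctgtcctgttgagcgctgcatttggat

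Each motif was searched as fixed letters on both strands of the 30 promoter windows that the regions overlapped and of all 32851 windows. Letters were counted anywhere in a window. The ETS letters at Pex26, the AP-1 letters at Pir, the STAT letters at Nemf and the CCAAT box at Lsm2 lie outside the regions there. The median share of G and C bases was 57.3% in the 30 windows and 52.7% over all windows. Its part in the shares below was not tested. The CCAAT box (CCAAT) was in 14 of the 30 windows (46.7%), among them those of Ubxn10, Tspan15 and Nr1i2, against 37.4% of all windows. The GC box (GGGCGG) was in 15 (50%) against 35.7%. The ETS letters CCGGAAG were in 5 (16.7%) against 8.86%, and the CRE letters TGACGTCA in 2 (6.67%), at Lsm2 and Zfp457, against 1.79%. AP-1 letters (TGANTCA) were in 3 (10%) against 7.81%, and STAT letters (TTCNNNGAA), which overlap the ETS letters at Zfp457, in 3 (10%) against 8.3%. The E-box CACGTG was in 1 (3.33%) against 7.15%. The forkhead letters TGTTTAC, the HNF4 letters CAAAGTCCA, the C/EBP letters TTGCGCAA and the DR1 repeat bound by PPAR with its partner were in none of the 30, against 3.65%, 0.475%, 0.183% and 0.0396% of all windows. The window of Gm41331 held none of the motifs searched. Windows of neighbouring or alternative starts share bases, and a match of letters is a description of the sequence, not a site of binding.

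Full lists were longer where Ppara was present, with 28733 to 39296 peaks against 18132 to 22715 without it. Keeping 18132 kept 46.1% to 63.1% of the former and 79.8% to 100% of the latter. The deposited −log10 p of the last peak kept lay between 21.8 and 37.9 with Ppara and between 7.77 and 14.6 without it. Peak names carry the numbers 441, 443, 446 and 4717 for the libraries with Ppara and 6831 to 6834 for those without. What these numbers stand for is not stated, and their split cannot be told apart from genotype. As a check of the tissue, 13 of 20 hepatocyte marker genes had a region within 1 kb of a gene end called in all 8 libraries, against 1 of 15 macrophage and none of 16 lymphoid, 14 endothelial, 12 stellate and 10 cholangiocyte genes. Regions nearest to endothelial genes numbered 7 to 11 per Ppara-null and 20 to 50 per Ppara-intact library, and those nearest to hepatocyte genes 78 to 91 and 115 to 143. Regions nearest to macrophage genes numbered 3 to 5 and 3 to 8, to lymphoid genes 4 to 6 and 7 to 10, to stellate genes 1 to 3 and 8 to 10, and to cholangiocyte genes 7 to 11 and 20 to 29. None of the 254 regions had one of these 67 non-hepatocyte genes as its nearest gene. Such regions were rare throughout, at 57 of all 30017 with a kept peak, so a count of none is near the background. The part of cell composition in the selection was not tested.

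Most of the 254 regions also had a peak in livers with Ppara, at a lower rank in a longer list. In the full lists 106 of them (41.7%) were called in all 4 Ppara-intact libraries as well, with peaks that ranked below 18132 there. A further 56 (22.0%) were called in 3 of these libraries, 37 (14.6%) in 2 and 33 (13%) in 1. Only 22 (8.66%) had no peak in any full Ppara-intact list. Wild type 1 called 140 of the 254, wild type 2 called 176, Cpt2 knockout 1 called 195 and Cpt2 knockout 2 called 188. The shortest of these lists, wild type 1, thus called the fewest. No like counts over other regions are given beside these calls, so they describe the set and are not read as particular to it. Where called, the median deposited −log10 p of the regions was 16.6 to 23.2 per Ppara-intact library, and it was 17.7 to 23.4 per Ppara-null library. The median deposited fold, the pileup at the summit over the local background, was 5.3 to 6.33 and 5.55 to 6.42. These are the authors' values, whose ranges over the 2 sides overlap, while the −log10 p needed to be kept was higher on the Ppara-intact side. A lower rank with Ppara need not mean a weaker peak: at Nr1i2 the −log10 p was 21.7, 23.1, 37.9 and 26.1 in the Ppara-intact libraries and 22.8, 13.6, 20.8 and 14.8 in the Ppara-null ones. Of the 402 opposite regions, 321 (79.9%) had no peak in any full Ppara-null list. Those lists end at 18132 to 22715 peaks and hold few or none past the limit. This share therefore follows largely from list length and cannot be set against the 8.66%. Over all 49587 regions, 6.82% were called in every full list with Ppara and none without it, a share on which the longer Ppara-intact lists bear too.

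Within the Ppara-null lists the regions stood mostly low. A rank of 1 denotes the strongest peak of a library, and the rank of a region is that of its strongest peak. The median rank was 11377 in Ppara knockout 1, 10524 in Ppara knockout 2, 10734 in double knockout 1 and 9406 in double knockout 2. Over the 4 libraries the mean rank of a region ran from 354 to 16971 with a median of 10764, against a median of 6359 for the 10493 other regions kept in all 4 Ppara-null lists. Of the 254 regions, 82 (32.3%) had a mean rank in the strongest 50% of the kept peaks and 7 (2.76%) in the strongest 25%, against 71.9% and 34.7% of the others.

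**Figure D1:**
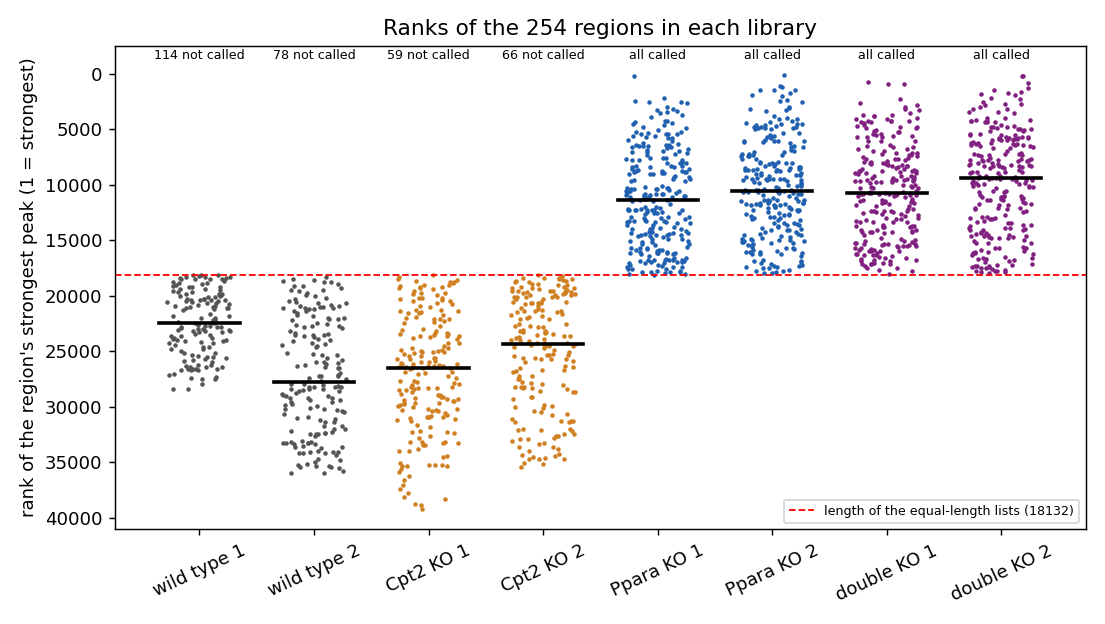
Rank of the strongest peak in each of the 254 regions (1 = strongest, axis inverted) in each library, with the median as a bar, the length of the equal-length lists as a dashed line and the number of regions without a peak above each column. All 254 lie above the line in the 4 Ppara-null libraries, and 140 to 195 have a peak below it in the Ppara-intact ones.

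The highest ranked region lay on chromosome 15 at 60141663 to 60142122, at the annotated start of the long noncoding RNA Gm41331 and 125045 bp from the nearest protein-coding gene, 4933412E24Rik. It ranked 173 in Ppara knockout 1, 89 in Ppara knockout 2, 957 in double knockout 1 and 197 in double knockout 2. No Ppara-intact library called it at any rank. Its deposited fold was 17.7, 21.6, 16.9 and 18.5 in the 4 Ppara-null libraries, and the summits spanned 50 bp. It stood well apart from the next region, whose ranks were up to 5961. The ranks of the 2 genotypes did not overlap, with Ppara knockout higher.

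A pair of regions lay inside Neat1, the long noncoding RNA that forms the scaffold of nuclear paraspeckles, 265 bp apart on chromosome 19. The higher ranked, at 5841329 to 5841831, ranked 5961 and 3233 in Ppara knockout and 774 and 193 in double knockout. Cpt2 knockout 2 called it at rank 19963, and the other 3 Ppara-intact libraries did not call it. Both double knockout libraries ranked it above both Ppara knockout libraries.

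A region near Mfng, which encodes a glycosyltransferase that modifies Notch receptors, ranked 3527, 1194, 6808 and 1788 in the 4 Ppara-null libraries, in the order Ppara knockout 1 and 2 and double knockout 1 and 2. It lay 2507 bp from the gene (chromosome 15, 78752999 to 78753375). A region 798935 bp from the nearest gene, Tbc1d32 (chromosome 10, 55214982 to 55215358), ranked 3680, 1440, 6090 and 2548. No Ppara-intact library called either one, and the ranks of the 2 Ppara-null genotypes overlapped for both.

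Further regions among the 12 highest lay inside Chad, which encodes a cartilage matrix protein and lies within the acyl-CoA synthetase gene Acsf2, inside Myo16, an unconventional myosin, and outside genes near Zfp521 and Zfp213. The region inside Chad ranked 6420, 1736, 3721 and 5168 in the Ppara-null libraries and 24234 in Cpt2 knockout 2 alone of the others. That inside Myo16 ranked 5440, 4570, 4613 and 4161, and it was called in all 4 Ppara-intact libraries at 19827 to 34130.

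**Figure D2:**
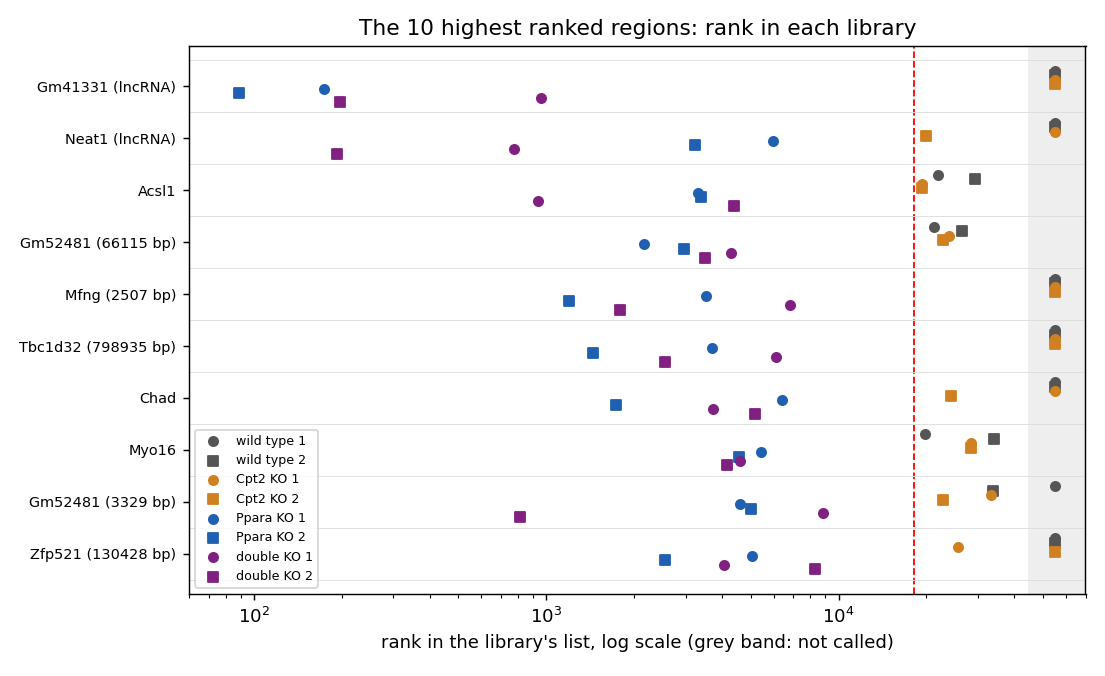
Rank in each library (log axis) of the 10 regions with the highest mean rank over the Ppara-null libraries, labelled by the nearest protein-coding gene with its distance or by the long noncoding RNA they lie in. Gm41331, Mfng and Tbc1d32 have no peak in any Ppara-intact library (grey band), while Acsl1 and Myo16 have lower ranked peaks in all 4.

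Of the 12, 2 lay on chromosome Y, at 90811198 to 90813931 and 90737707 to 90739400. The first ranked 2165, 2967, 4276 and 3491 in the Ppara-null libraries and 21293 to 26372 in all 4 Ppara-intact ones. The second ranked 4613, 5006, 8870 and 812, and 22829 to 33648 in the 3 Ppara-intact libraries that called it. In all, 4 of the 254 regions lay on chromosome Y, out of 16 regions with a kept peak there (25%, against 0.846% over all chromosomes). Much of this chromosome consists of repeated copies, and its distal end holds sequence shared with the X, so reads there are hard to place and the values are uncertain.

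Acsl1, the long-chain acyl-CoA synthetase that activates fatty acids and a classic target of Ppara, was the nearest gene to regions of both kinds. The region inside the gene at 46529488 to 46530019 on chromosome 8 ranked 3310 and 3384 in Ppara knockout and 938 and 4384 in double knockout. It was called in wild type at 21829 and 29211 and in Cpt2 knockout at 19304 and 19267. Its deposited −log10 p was 17.2 and 18.3 in wild type and 35.3 and 29.6 in Cpt2 knockout. Without Ppara it was 39.7 and 34.2 in Ppara knockout and 81.9 and 33.0 in double knockout, so the 2 sides overlapped. The deposited fold did not overlap, at 4.01 to 5.64 with Ppara and 7.35 to 12.1 without it. Inside the same gene, the region at 46490738 to 46491174 ranked 12757 and 11477 in wild type and 15712 and 10934 in Cpt2 knockout, and no Ppara-null library called it. A further one, 66448 bp from the gene (46404114 to 46404589), ranked 9671, 6204, 10886 and 5206 in the Ppara-intact libraries and was likewise not called without Ppara. Of the 19 consensus regions nearest to Acsl1, 4 were kept in all 8 libraries.

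Eci2, an enoyl-CoA isomerase needed for oxidation of unsaturated fatty acids, was likewise nearest to regions of both kinds. A region 11149 bp from the gene (chromosome 13, 35038264 to 35038590) ranked 6404, 7213, 9821 and 9357 in the Ppara-null libraries and was called in no Ppara-intact one. A region inside Eci2 (35016051 to 35016618) ranked 11149, 12255, 14177 and 16490 in the Ppara-intact libraries and was called in no Ppara-null one. Only 5 genes were nearest to regions of both kinds, which is 2.03% of the 246 genes assigned to the 254 regions and 1.32% of the 379 genes assigned to the opposite ones. Among the others were the sugar-phosphate transporter gene Slc37a1 and St3gal5, the sialyltransferase that makes the ganglioside GM3.

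**Figure D3:**
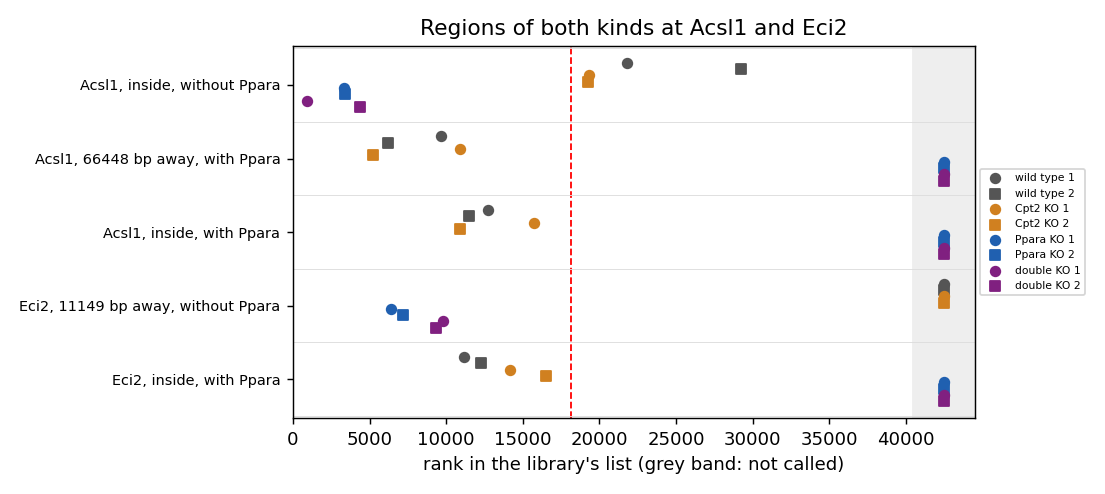
Rank in each library of the regions assigned to Acsl1 and Eci2 that were kept only without Ppara or only with Ppara intact, with points in the grey band where no peak was called. The region inside Acsl1 at ranks 938 to 4384 without Ppara has a lower ranked peak in the Ppara-intact libraries, and the other 4 have none on the opposite side.

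The lists of genes described next were chosen with earlier results of these data known. Of 55 Ppara target genes, Acsl1 and Eci2 were the only ones assigned a region of this set, so 2 of 254 regions (0.787%) fell to the list against 0.56% of the 30017 regions with a kept peak. The opposite set gave 15 of 402 (3.73%). Over the 11 pathway lists together, 10 of the 254 regions (3.94%) were assigned to a listed gene against 3.45% of all regions with a kept peak, a share near the background. Genes of the AP-1 and immediate early response, of fatty acid and cholesterol synthesis, of the cell cycle and p53, and of the integrated stress response had none. In that order, these lists held only 0.313%, 0.44%, 0.177% and 0.0933% of all regions with a kept peak.

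For xenobiotic metabolism, 2 of 33 genes had a region (0.787% of the set, against 0.227% of all regions with a kept peak). Nr1i2 encodes the pregnane X receptor, which senses drugs and bile acids. The region at its start (chromosome 16, 38294608 to 38295038), whose sequence is printed above, ranked 9191 and 14577 in Ppara knockout and 12464 and 13941 in double knockout. Cpt2 knockout 1 placed it at 18152 and wild type 1 at 18163, just past the limit, so it belongs to the set by 20 ranks. Cyp3a25 encodes a cytochrome P450. A region 707 bp from it (chromosome 5, 145975496 to 145976485) ranked 3035, 5794, 4317 and 7704, and of the Ppara-intact libraries wild type 2 alone called it, at 32169.

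Of the genes for the PPAR receptors, their partners and cofactors, Rxra is described here. It encodes the retinoid X receptor alpha, the DNA-binding partner of Ppara. The region 753 bp from it (chromosome 2, 27764072 to 27765364) ranked 16246, 8109, 10826 and 8374 without Ppara, and all 4 Ppara-intact libraries called it at 18844 to 28181. The ranks of the 2 Ppara-null genotypes overlapped.

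Tat, encoding tyrosine aminotransferase of amino acid catabolism, was the only one of 20 genes of the glucose and insulin response with a region. It covered 109998214 to 109999404 on chromosome 8, 400 bp from the nearer gene end, and ranked 6524, 2022, 6952 and 5481. All 4 Ppara-intact libraries called it as well, at 19138 to 35419. The clock list gave a region inside Rora, a nuclear receptor of the clock, at 10218, 3200, 8348 and 3544 (chromosome 9, 69099592 to 69099966), and 3 Ppara-intact libraries called it, at 18523 to 35017. The acute phase list gave one inside Nfkb1, a subunit of NF-κB, at 6753, 12505, 18028 and 11634, called with Ppara in Cpt2 knockout 2 alone, at 27829. The Notch, Hippo and TGF-β list gave the one near Mfng, a gene put on the list with its region known. Each of these lists gave 0.394% of the set. Over all regions with a kept peak, the glucose and insulin list held 0.52% and the clock list 0.307%. The acute phase list held 0.21% and the Notch, Hippo and TGF-β list 0.243%. Of 20 hepatocyte marker genes, Tat, Apob, Trf and Serpina1a had a region (1.57% of the set against 0.446%). Apob encodes the structural protein of lipoproteins, Trf the iron carrier transferrin, and Serpina1a a protease inhibitor secreted by liver. With Ppara, the region inside Apob was called in 3 libraries at 20557 to 27640, and that near Trf in all 4 at 22815 to 34279. The region near Serpina1a was called in both wild type libraries, at 21044 and 20782, and in neither Cpt2 knockout.

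Regions within 1 kb of a gene end numbered 43. After Cyp3a25 and Tat, the highest lay near Errfi1, a feedback inhibitor of the EGF receptor, at ranks 5618, 1885, 15277 and 5696. The region near Lect2, a liver-secreted chemotactic factor, ranked 9297, 16872, 4368 and 6280, and that near Ctsl, a lysosomal protease, 8795, 15762, 8015 and 5821. Csnk1e, a casein kinase that acts in the clock, had a region at 6449, 12646, 10204 and 9200. The regions near Vmp1, needed for autophagy, and at Upp2, a uridine phosphorylase, completed the 8 highest, with ranks of 1246 to 13905 and 6918 to 14280. With Ppara, those near Errfi1 and at Upp2 were called in all 4 libraries, at 21706 to 29638 and 21436 to 23715. Those near Lect2 and Csnk1e were called in 3, at 19535 to 30467 and 23314 to 34557, that near Ctsl in both Cpt2 knockout libraries, at 33962 and 24479, and that near Vmp1 in Cpt2 knockout 2, at 33592. Of these 8 regions, both double knockout libraries ranked higher at Lect2 and Ctsl, both Ppara knockout libraries at Errfi1 and Upp2, and the ranks overlapped at the other 4.

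The 22 regions without any Ppara-intact peak, at any rank, are the strictest part of the set. In the full lists 34 consensus regions (0.0686% of 49587) had a peak in every Ppara-null and no Ppara-intact library, and the 22 are 64.7% of these. After Gm41331, Mfng and Tbc1d32, the next in rank lay 11504 bp from Rps23rg1 and 17898 bp from Ndufb3. A region 150271 bp from Ahr, the dioxin receptor gene, lay inside the long noncoding RNA 9130015A21Rik (chromosome 12, 35685260 to 35685637) and ranked 8065, 6077, 7641 and 4236. A region inside Ppm1k, the phosphatase that activates branched-chain amino acid breakdown, ranked 4442, 4098, 11722 and 5782. Regions inside Ltbp2, a matrix protein of the latent TGF-β binding family, and near Acvr1, a BMP receptor, had ranks of 4820 to 9248 and 4330 to 9411, and Eci2 completed the 10 highest. Of these 10, 8 lay outside protein-coding genes, that at the start of Gm41331 among them. The other 2 lay inside Ppm1k and Ltbp2, where the gene table does not separate introns from exons.

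Fewer of the regions lay near gene ends than among all regions with a kept peak. Of the 254 regions, 43 (16.9%) lay within 1 kb of either end of a protein-coding gene, 115 (45.3%) inside a gene and 96 (37.8%) outside genes. The gene-end share was 7.22% when a peak had to cover 50% of a region and 23.7% with ranking by fold. Over all 30017 regions with a kept peak the shares were 32.7%, 38.3% and 29.0%, and over the other regions kept in all 4 Ppara-null lists 50.9%, 29.2% and 20%. The opposite set resembled this one, with 13.4%, 46.8% and 39.8%. More than 100 kb from any protein-coding gene lay 17 regions (6.69%), against 5.15% of all. Inside an annotated long noncoding RNA lay 37 (14.6%), of which 26 were outside protein-coding genes. The share over all regions with a kept peak is not given for these, so they are not read as a trait of the set. The median width was 407.5 bp, against 464 bp over all regions with a kept peak and 634 bp over the other regions kept in all 4 Ppara-null lists, which also ranked higher. The summits of the 4 Ppara-null libraries spanned a median of 72 bp in the set and 67 bp in those others. These spans are in base pairs and are not scaled to the unlike widths. Regions are not replicates, and these shares were not tested.

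**Figure D4:**
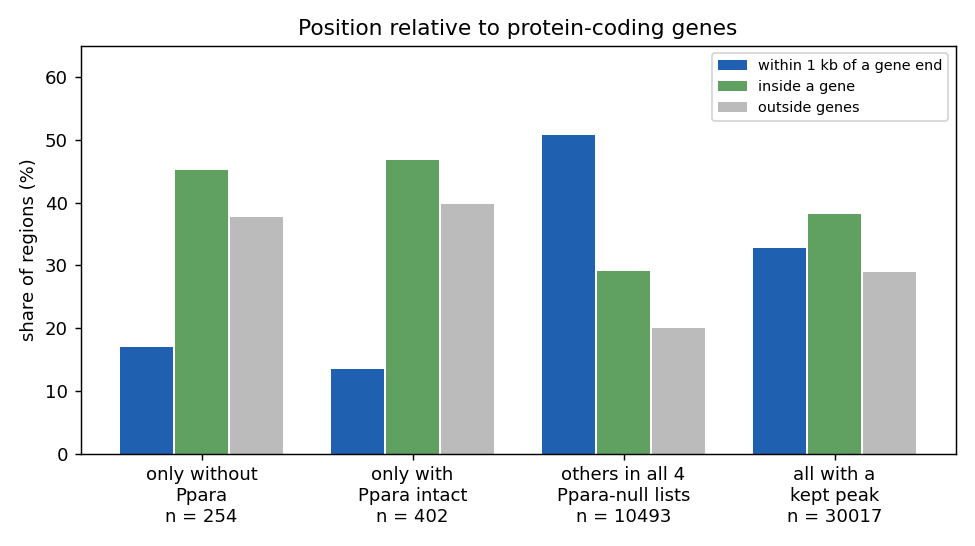
Share of regions (%, from 0) within 1 kb of either end of a protein-coding gene, inside a gene and outside genes, for the 254 regions kept only without Ppara, the 402 kept only with Ppara intact, the 10493 others kept in all 4 Ppara-null lists and all 30017 regions with a kept peak. The gene-end share is 16.9% and 13.4% in the 2 separated sets and 50.9% and 32.7% in the others.

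By chromosome, the set was spread over all autosomes and both sex chromosomes. Chromosome 2 held 28 regions (11% against 7.53% of all regions with a kept peak), chromosome 12 held 19 (7.48% against 4.02%) and chromosome 17 held 18 (7.09% against 4.45%). Chromosome 15, which carries Ppara, held 8 (3.15% against 4.21%). Within 10 Mb of Ppara lay 4 regions (1.57%), against 1.54% of all regions with a kept peak, a share near the background. They lay near Mfng, 6981535 bp from Ppara, Csnk1e, Ndufa6 and Tmem117. Of these 4, the regions near Mfng and Ndufa6 had no peak in any Ppara-intact library. The region at Gm41331 lay on the same chromosome, 25592788 bp from Ppara.

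Loss of Cpt2 on the Ppara-null background was read from the order of the 4 Ppara-null libraries, an order that the rule does not use. Both double knockout libraries ranked above both Ppara knockout libraries at 51 of the 254 regions (20.1%), and the reverse held at 38 (15%). Over the 10747 regions kept in all 4 lists the shares were 20.3% and 25.6%. Double knockout thus led at a share near the background and Ppara knockout at a share below it, and at the other 165 regions the ranks overlapped. With 2 libraries against 2 an exact permutation test cannot reach a p under 0.05, and no test was made. Leaving out any of the 4 libraries raised these counts by over 1.5 times, to 77 to 112 and 67 to 98, since fewer libraries then have to be separated. Without Ppara knockout 1 the counts turned, to 90 against 98. The shares over the 10747 regions were not taken with a library left out. Whether these counts are near the background therefore cannot be told.

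The widest separations in favour of the double knockout lay inside Cdk11b, inside Npm2, near Nrsn2, inside Dpf3 and near Retreg1. Cdk11b encodes a cyclin-dependent kinase, and its region ranked 13414 and 11709 in Ppara knockout and 4816 and 4756 in double knockout (chromosome 4, 155645774 to 155646119). The region 2031 bp from Retreg1, a receptor for autophagy of the endoplasmic reticulum, ranked 8870 and 14972 against 2271 and 2840. In favour of Ppara knockout they lay at Pigk, near Shb, at Fzd6, near Tnfrsf21 and at Tm9sf4. Pigk encodes a subunit of the enzyme that attaches GPI anchors, and its region ranked 7580 and 7336 in Ppara knockout and 16154 and 17257 in double knockout (chromosome 3, 152713971 to 152714500). Fzd6, a Wnt receptor, had a region at 11133 and 4862 against 16724 and 16634.

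**Figure D5:**
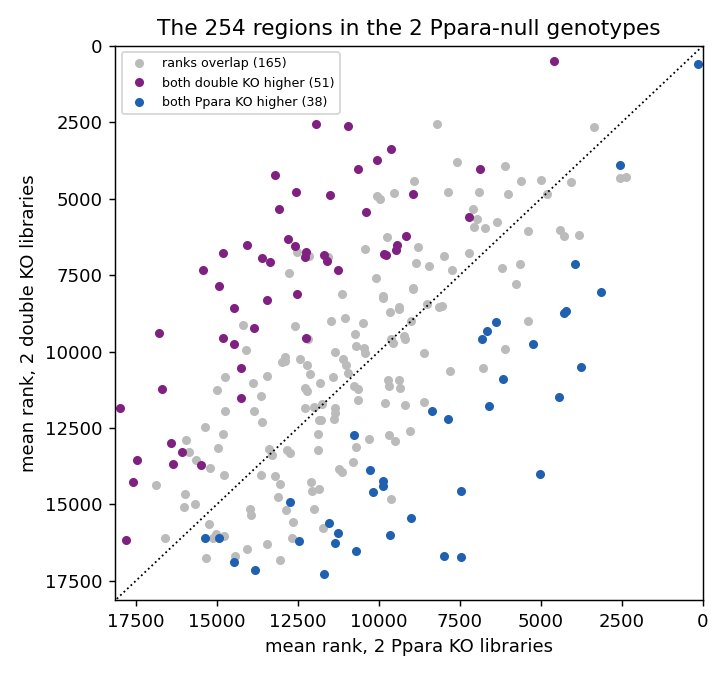
Mean rank of each of the 254 regions in the 2 Ppara knockout libraries (x) and the 2 double knockout libraries (y), with the strongest at the upper right and equal ranks on the dotted line. Both double knockout libraries rank higher at 51 regions, both Ppara knockout libraries at 38, and the ranks overlap at 165.

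Loss of Cpt2 with Ppara present could be read only from peaks ranked past the limit, which need not be weaker than those without Ppara. In the full lists 19 of the 254 regions (7.48%) were called in both Cpt2 knockout and neither wild type library, against 3.63% of all 49587 regions, and 5 (1.97%) in both wild type and neither Cpt2 knockout library, against 0.512%. The rule leaves the 254 regions without a kept peak in any of these libraries, whereas the 49587 include regions kept in all of them. Such regions cannot differ, so larger shares in both directions can follow from the selection and are not read as an effect of Cpt2. The 19 include those near Retreg1, Nrsn2 and Ctsl, 1 of the 2 regions inside Cdk11b, one inside Ogdh, a subunit of the mitochondrial oxoglutarate dehydrogenase, and one at the end of Mat1a, which makes S-adenosylmethionine in liver. Those near Retreg1 and Nrsn2 and inside Cdk11b were also among the widest separations in favour of the double knockout. The region inside Ogdh went the other way, at 3320 and 5559 in Ppara knockout against 9988 and 13007 in double knockout. At others of the 19, such as those inside Gcfc2 and Dpyd, the ranks of the 2 genotypes overlapped. This match was not set against a share over all regions and is not read as an effect of Cpt2. The Cpt2 knockout lists are longer than that of wild type 1, and the part of list length was not tested. Without wild type 2 the 19 became 53, and without Cpt2 knockout 1 the 5 became 17.

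The limit of 18132 peaks decided many of the calls. Regions that missed the rule in a single library numbered 828. For 89 of the 254 the lowest Ppara-null rank or the highest Ppara-intact rank lay within 1000 ranks of the limit. Just inside were the regions inside Rusc2 and Xpo4 and at Nr1i2, which belong by 11, 19 and 20 ranks. Just outside were those near Hamp, at Zfp383 and at Ppm1h, which missed by 2, 19 and 57. Hamp encodes hepcidin, the hormone of iron balance, and the region 704 bp from it (chromosome 7, 30941187 to 30941664) was called in no Ppara-intact library. It ranked 18134 in Ppara knockout 1, 13642 in Ppara knockout 2, and 7738 and 8033 in double knockout.

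Which regions met the rule depended on the length of the lists. With the 15000 strongest peaks 237 regions met it, of which 131 were among the 254 (51.6% of the 254 and 55.3% of the 237). With the 10000 strongest there were 189, of which 32 were shared (12.6% and 16.9%). Ranking by the deposited fold gave 270, of which 129 were shared, and asking a peak to cover 50% of a region gave 194, of which 193 were shared. Only 17 of the 254 (6.69%) met the rule under all of these settings. They include the regions at Gm41331, Acsl1, Mfng, Tbc1d32, Chad, Eci2 and Ahr, as well as one inside Slc7a2, a transporter of cationic amino acids, and one inside Pde4b, a phosphodiesterase that breaks down cAMP. None of the 17 lay within 1 kb of a gene end, 8 had no peak in any full Ppara-intact list and 6 had one in all 4.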

How the data were processed

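ATAC-seq libraries of 8 fasted mouse liver samples were analysed as deposited peak lists. BWA, MACS2 2.1.0 and mm10 are named in the submitters' processing notes. Peaks were called separately per library, per the peak names in the deposited files. The authors deposited for each peak a fold (a ratio of the summit pileup to the local background), a −log10 p and a −log10 q. Alignment settings, the treatment of duplicates and any Tn5 shift are not given in the sources used here, and no read depth is known, so no interval on a peak is given. The deposited consensus regions are positions without values, and how they were merged is not given in the sources used here.

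Peaks were ranked within each list by −log10 p, ties by fold, chromosome and start, and the strongest 18132 of each list were kept. A region was called where a peak shared at least 1 bp with it. Distances are to 21900 protein-coding genes of RefSeq GRCm38.p6, whose table used here gives no exons or strand. All listed genes matched by symbol. Positions count from 1. Code (Python 3.11.15, NumPy 2.4.6, pandas 2.3.3, SciPy 1.17.1, matplotlib 3.10.9) was tested on simulated data. No test was made: the selection used all 8 libraries.

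The regions, lists and comparisons were chosen with earlier results of these data known. Regions named were the 12 highest by mean rank in the Ppara-null lists, the 8 highest near gene ends, the 10 highest without a Ppara-intact peak, those at listed genes or within 10 Mb of Ppara, the 5 widest separations each way and 3 regions on either side of the limit. Others named were chosen after their values were seen. Some results at these regions are not reported here.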

Additional observations from a re-analysis of the deposited data

How the results depend on the processing

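No p-value was computed, so the alternatives are compared by counts and shares. The number of regions was 254, and in full-length lists, where no peak is dropped, it was 34. The share within 1 kb of a gene end was 16.9%. It was 23.7% with ranking by fold, 7.22% when a peak had to cover 50% of a region, and 29.5% of the same regions lay within 5 kb, which is wider by construction. The cause of the other shifts was not tested.

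Leaving out a library asks for separation of fewer, so larger counts follow from the construction. The number of regions ran from 289 to 435, reaching 390 without Cpt2 knockout 2, 404 without Ppara knockout 1 and 435 without Ppara knockout 2. Their gene-end share ran from 15.4% to 20.9%, and their share within 10 Mb of Ppara from 1.22% to 1.73%. Regions with no Ppara-intact peak at any rank, 22 with all libraries, ran from 28 to 53, with 39 without Cpt2 knockout 2, 53 without Ppara knockout 1, 46 without Ppara knockout 2 and 35 without double knockout 1. Regions ranked higher in both double knockout libraries ran from 77 to 112, and those higher in both Ppara knockout libraries from 67 to 98. The regions called in both Cpt2 knockout and neither wild type library ran from 25 to 53, and the reverse from 8 to 17.

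Taking same-numbered libraries as pairs (a replicate block), the double knockout ranked higher in both pairs at 71 regions and the Ppara knockout at 56. No share over all regions kept in the Ppara-null lists was taken for these pairs or for the left-out libraries. Differences between replicates 1 and 2 in the Ppara-null genotypes correlated at -0.0117 over 10747 regions, so these ranks show no pairing by number. The numbering of wild type and Cpt2 knockout was not tested. For wild type and Cpt2 knockout the block gave 19 and 5 regions, the same counts by construction. Left-out libraries for the 22 regions, the block for wild type and Cpt2 knockout, and the joint count of 17 were chosen after seeing the data. Read depth is unknown, so a region that was not called may lie under the calling threshold.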

Other observations

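Some of the 254 regions lay side by side. Besides the pair inside Neat1, a pair 273 bp apart lay inside Cabin1, which encodes an inhibitor of calcineurin signalling (chromosome 10), and a pair 174 bp apart was assigned to Ddx1, an RNA helicase gene (chromosome 12). A pair 159 bp apart had Tmem267 and the chemokine gene Ccl28 as nearest genes (chromosome 13). In all, 8 of the regions had another of the set within 5 kb, and 18 had one within 100 kb, with no like count over other regions to set beside them. On chromosome 17 the regions assigned to the heat shock gene Hspa1b and to Lsm2, which encodes a subunit of the Lsm RNA-binding ring, were 28783 bp apart. The first overlapped the start of the long noncoding RNA 1110038B12Rik and the second the start of Lsm2. They ranked 9569 to 15149 and 13299 to 17139 in the Ppara-null libraries, and both were called in all 4 Ppara-intact libraries.

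The set without a Ppara-intact peak at any rank also held regions near H2-Aa, a class II antigen presentation gene (chromosome 17, 34280605 to 34281195), and inside Tnfrsf1b, a receptor for TNF (chromosome 4, 145221985 to 145222375). The first ranked 13007, 9438, 11667 and 16016 in the Ppara-null libraries, and the second 14417, 14532, 9588 and 9910.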
